A study of Mus musculus with 8 samples.

Results

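The genes described here are 42 genes of the cell division cycle, 16 that act in or just before DNA synthesis (S phase) and 26 that act in mitosis, out of 22220 genes measured in mouse liver. A probe was taken where its gene name in the array files, or the current symbol of its accession, was on the list, and the brightest probe stood for each gene. All 42 had a probe above the filter on dim spots. The livers came from 8-wk-old ICR scid mice, which lack mature T and B lymphocytes but keep natural killer cells, macrophages and neutrophils. Untreated males were set against untreated females (10 mice each), and mice given Adeno-Cux2, an adenovirus carrying the homeobox factor Cux2, against mice given the control adenovirus Adeno-CMV. The treated groups were males at day 5 (12 Adeno-Cux2 and 13 Adeno-CMV mice), females at day 5 (8 and 7) and males at day 3 (11 and 11). Each comparison had 2 two-colour arrays, each with its own pair of mouse pools and with the dyes exchanged, so n is 2 throughout.

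A cell that divides first loads the MCM helicase onto its DNA, copies the DNA in S phase, and then builds a spindle that separates the copies in mitosis. The genes for these steps are switched on in waves, the S-phase genes largely through E2F factors and the mitotic genes largely through the MuvB complex with Mybl2 and Foxm1, and in resting cells both sets are held down by the DREAM complex. Hepatocytes of the adult liver are mostly at rest, but they can re-enter the cycle after injury, and they can also copy DNA without dividing.

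Promoter sequences of these genes, from RefSeq (build GRCm38.p6), were at hand for 14 of the 16 S-phase and 21 of the 26 mitotic genes. Mcm4, Gmnn, Ccna2, Foxm1, Aurkb, Kif20a and Tpx2 had none in the table. Words were searched on both strands from 250 bases before the start of the gene to 50 after it. The E2F words were TTTGGCGC, TTTCCCGC, TTTGCCGC and TTTCGCGC, the words of the CHR element, a binding site of MuvB, were TTTGAA and TTCGAA, and the CCAAT box was CCAAT. An E2F word stood in 7 S-phase promoters (50%) and 1 mitotic promoter (4.76%), against 2.61% of 27025 genes. A CHR word stood in 16 mitotic promoters (76.2%) and 2 S-phase promoters (14.3%), against 21.7% of all genes. All 16 of those mitotic promoters also held a CCAAT box, a pair that 8.61% of all genes had. The CCAAT box alone stood in 85.7% of mitotic, 64.3% of S-phase and 41.1% of all promoters. E2F words overlapped each other by 4 bases in Mcm5 and in Mcm6, 2 CCAAT boxes by 2 bases in Ube2c, and words of different kinds by 1 base in Cdca8 and Mcm7. A match says only that these letters are present in the window.

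The mitotic pattern is shown by the 180 bases before the start of 4 genes, with CHR words, CCAAT boxes and E2F words in capitals. Cdc20 activates the anaphase-promoting complex, Ube2c is its ubiquitin-conjugating enzyme, Cdk1 is the kinase that drives mitosis, and Mki67 coats mitotic chromosomes. Cdk1 was the mitotic promoter that also held an E2F word.
Cdc20 (chr4:118437344-118437523, minus strand): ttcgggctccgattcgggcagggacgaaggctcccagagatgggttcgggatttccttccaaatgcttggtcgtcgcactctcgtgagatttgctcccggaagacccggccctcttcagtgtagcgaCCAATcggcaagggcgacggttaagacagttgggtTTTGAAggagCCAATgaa
Cdk1 (chr10:69352913-69353092, minus strand): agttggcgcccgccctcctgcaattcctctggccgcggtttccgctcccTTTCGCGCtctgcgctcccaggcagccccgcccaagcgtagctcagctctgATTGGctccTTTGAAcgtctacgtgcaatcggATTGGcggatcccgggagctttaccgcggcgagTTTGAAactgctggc
Ube2c (chr2:164769749-164769928, plus strand): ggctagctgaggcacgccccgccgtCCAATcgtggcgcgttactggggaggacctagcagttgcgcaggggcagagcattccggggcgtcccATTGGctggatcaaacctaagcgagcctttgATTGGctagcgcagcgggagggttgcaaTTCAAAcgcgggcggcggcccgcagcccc
Mki67 (chr7:135716380-135716559, minus strand): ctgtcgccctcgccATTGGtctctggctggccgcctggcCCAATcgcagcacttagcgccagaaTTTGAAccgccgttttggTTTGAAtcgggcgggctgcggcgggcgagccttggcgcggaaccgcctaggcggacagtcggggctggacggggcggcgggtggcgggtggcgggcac

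The S-phase pattern is shown in the same way by 4 genes that held E2F words and no CHR word. Mcm5 and Mcm6 are subunits of the replicative helicase, Cdc6 loads the helicase, and Cdk2 is the kinase that starts S phase.
Mcm5 (chr8:75109329-75109508, plus strand): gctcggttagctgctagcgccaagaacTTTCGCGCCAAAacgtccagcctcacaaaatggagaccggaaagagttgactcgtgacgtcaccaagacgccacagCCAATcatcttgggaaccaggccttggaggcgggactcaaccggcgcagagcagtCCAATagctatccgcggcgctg
Mcm6 (chr1:128359706-128359885, minus strand): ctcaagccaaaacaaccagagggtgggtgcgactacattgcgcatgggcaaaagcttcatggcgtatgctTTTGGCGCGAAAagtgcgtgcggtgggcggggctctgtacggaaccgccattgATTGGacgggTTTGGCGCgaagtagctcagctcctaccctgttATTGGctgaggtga
Cdc6 (chr11:98907971-98908150, plus strand): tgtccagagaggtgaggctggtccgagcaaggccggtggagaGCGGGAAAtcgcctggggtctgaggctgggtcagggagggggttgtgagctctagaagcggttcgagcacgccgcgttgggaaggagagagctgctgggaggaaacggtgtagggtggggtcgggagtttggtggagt
Cdk2 (chr10:128705052-128705231, minus strand): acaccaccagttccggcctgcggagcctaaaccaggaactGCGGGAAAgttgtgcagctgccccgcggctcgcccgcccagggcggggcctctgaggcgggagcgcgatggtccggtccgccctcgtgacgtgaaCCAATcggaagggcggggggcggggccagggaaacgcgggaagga

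The log2 ratios of all genes, which are no replicates, had a Pearson r of 0.612 between the 2 untreated arrays and of 0.678 between those of females, against 0.873 (day 5) and 0.893 (day 3) in males. Cux2 itself was lower in untreated males (−1.74 and −2.02 on the 2 arrays). It was higher with Adeno-Cux2 in males (0.61 and 0.60 on the day 5 arrays, 0.39 and 0.58 on the day 3 arrays) and lower in the female pools labelled Adeno-Cux2 (−0.58 and −0.65), which goes against their label. The log2 signal of the Cux2 probe with Adeno-Cux2 in males was 6.96 and 6.94 at day 5, and 6.76 and 7.08 at day 3. In untreated males it was higher, at 7.36 and 7.66. Females had 9.10 and 9.68 untreated, and 8.03 and 8.26 with Adeno-CMV. Whether this probe reads the transcript of the vector was not tested. Every direction given for females below is that of the labels, and with the sign turned each female value changes sign. Over all genes, which are no replicates, the female ratios as labelled had a Pearson r of 0.716 with those of males at day 5 and 0.677 with those at day 3, from separate pools. Of the 42 members, 41 were well above background in all 16 channels, the exception being Cdc6. One slide held the arrays of untreated mice and of males at day 5, and another held the rest.

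The signal of the members in single pools was far higher in every adenovirus-treated group than in untreated mice, the control virus included. These levels are normalized log2 signals within a probe, and they describe pools that were not hybridized against each other. The median over the 26 mitotic genes was 7.42 in untreated males and 7.91 in untreated females. With Adeno-CMV it was 11.61 in day 5 males, 11.73 in day 5 females and 12.42 in day 3 males. With Adeno-Cux2 it was 11.86, 12.13 and 12.70 in the same order. The median over the 16 S-phase genes was 10.21 and 10.47 in untreated males and females, and between 12.45 and 13.26 in the virus-treated groups. For all 26 mitotic genes and for 15 of 16 S-phase genes, each of the 12 virus-treated pools lay above each of the 4 untreated pools. The exception was Tk1, thymidine kinase of the salvage pathway.

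Mki67, the usual marker of dividing cells, stood at 8.19 and 8.54 in untreated male pools and at 12.68 and 12.35 in male pools given Adeno-CMV for 5 days. Cdc20 had a mean of 8.71 in untreated male pools and of 14.07 in the same Adeno-CMV pools. Ccnb1, the cyclin partner of Cdk1, went from 6.48 and 6.61 to 11.91 and 11.66. These pairs of pools do not overlap, and they were read on the same slide. Tk1 stood at 12.80 and 12.48 in untreated males and at 12.62 and 12.68 with Adeno-CMV, where the pools overlap. Bub3, a checkpoint protein, differed least among the mitotic genes, at 12.38 and 12.32 against 12.79 and 12.79. In RNA of whole liver, more dividing cells and more RNA per cell cannot be told apart. The Adeno-Cux2 ratios below are differences between pools that both carried these transcripts, Tk1 aside, above their untreated levels. Some were dim even so, such as E2f1 at 7.71 and 7.54 with Adeno-CMV in males at day 5.

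**Figure D1:**
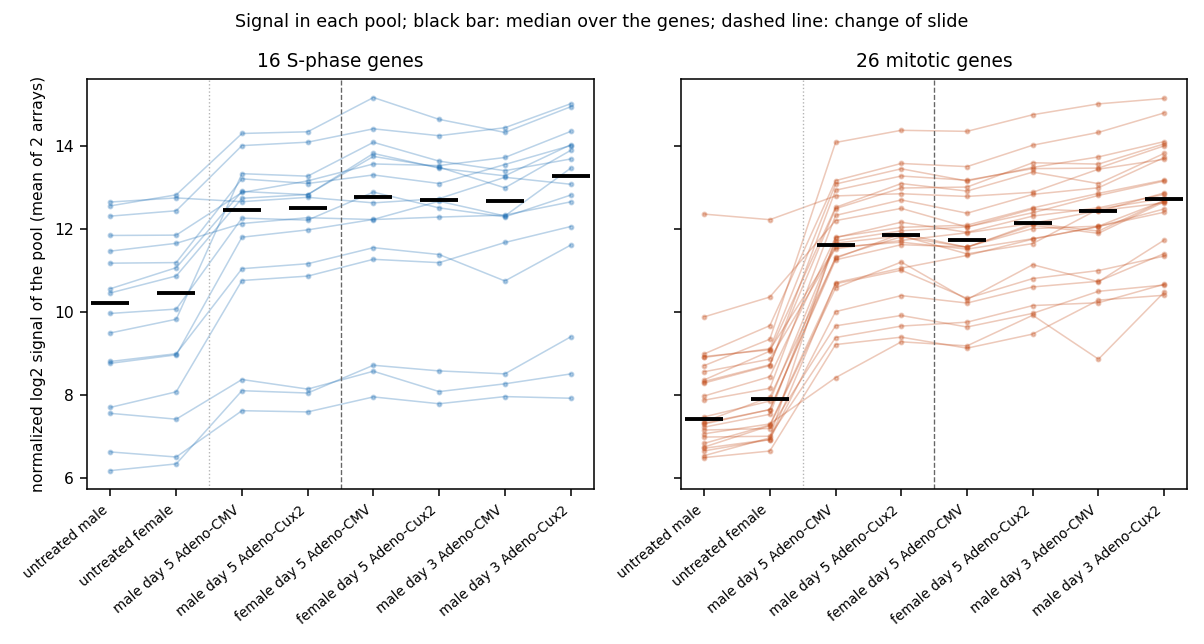
Normalized log2 signal (vertical axis, mean of 2 arrays) of each member in the 8 groups, S-phase genes on the left and mitotic genes on the right; thin lines join the values of a gene, black bars are medians and a dashed line marks the change of slide. The mitotic median lies at 7.42 and 7.91 in the untreated groups and between 11.61 and 12.70 in the 6 virus-treated groups.

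The values below are log2 ratios on array 1 and array 2, then the fitted ratio ± its standard error and, where given, the fold and the limma p adjusted over all genes. Called means an adjusted p under 0.05. Between untreated sexes, mitotic genes were lower in males and no S-phase gene was called. Of 26 mitotic genes 14 were lower and none higher at an adjusted p under 0.05, with a median log2 ratio of −0.34 (male over female). Over all genes tested 6.15% were lower, 4.94% higher and 11.1% were called in either direction. Mki67 was lower on both arrays (−0.86 and −0.52; −0.69 ± 0.07, 1.62-fold, adjusted p = 0.0027). Birc5, the survivin subunit of the chromosomal passenger complex, stood at −0.96 and −0.40 (−0.68 ± 0.09, adjusted p = 0.00604). Cdc20 stood at −0.73 and −0.54 (−0.63 ± 0.11, adjusted p = 0.0164). All 3 were below 0 on both arrays, with the larger difference on array 1.

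Cenpe, the kinesin that captures microtubules at centromeres, stood at −0.78 and −0.40 (−0.59 ± 0.08). Bub1, a checkpoint kinase at the centromere, was at −0.76 and −0.27 (−0.51 ± 0.07), and Ccna2, cyclin A of S phase and early mitosis, at −0.41 and −0.52 (−0.47 ± 0.09). Cdk1 (−0.31 ± 0.06) and Ccnb1 (−0.43 ± 0.08) were also lower. The other calls were the kinases Aurka and Aurkb, Ube2c, and the spindle proteins Kif20a, Tpx2 and Prc1. Top2a, the topoisomerase that untangles sister chromosomes, stood at −0.10 and −0.32 and was not called (adjusted p = 0.196).

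The 16 S-phase genes had a median of −0.17 between the untreated sexes, and 0 of 16 passed in limma, with 4 at an unadjusted p under 0.05. They ranged from −0.50 to 0.14, and the lowest adjusted p was 0.058, of Pcna (−0.35 and −0.18), the sliding clamp of DNA polymerase. Mcm2 stood at −0.27 and −0.10, and E2f1, the activating E2F factor, at 0.22 and 0.03. On array 1 the S-phase median was −0.30 and on array 2 it was −0.05, the larger difference again on array 1. Without array 1, 1 of the 42 members was called, Mki67, and without array 2, 18 were. Without either male day 5 array, which shares the estimate of the spread, 8 were called, and 2 without background subtraction, 6 with median centring or no dye term, and 0 with the 2 arrays alone.

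In males at day 5, mitotic genes rose with Adeno-Cux2, and no S-phase gene passed the test. Of 26 mitotic genes 16 rose and none fell (median 0.34), against 13.9% of all genes that rose, 4.95% that fell and 18.8% called in either direction. All 26 were above 0 on both arrays. Kif23, the motor of the central spindle in cytokinesis, rose most (0.94 and 0.78; 0.86 ± 0.07, 1.82-fold, adjusted p = 0.000326). Bub1 rose by 0.62 ± 0.07 (0.48 and 0.77, adjusted p = 0.00112), and Cenpe by 0.59 ± 0.08 (0.57 and 0.62, adjusted p = 0.00336). Mki67 rose by 0.57 ± 0.07 (0.48 and 0.67, 1.49-fold, adjusted p = 0.00256).

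Kif20a, a further cytokinesis motor, stood at 0.41 and 0.58 (0.50 ± 0.08), and Nusap1, which bundles spindle microtubules, at 0.44 and 0.54 (0.49 ± 0.10). By role, 7 of 8 spindle and centromere genes rose, 3 of 5 kinases and passenger proteins, 2 of 6 checkpoint and anaphase genes, and 2 of 5 cyclin and Cdk1 genes. Both Mki67 and Top2a (0.39 ± 0.09) rose, as did Ccnb1 (0.37 ± 0.08). Cdk1 stood at 0.17 and 0.18 and did not pass (adjusted p = 0.107), and its dimmer probe gave −0.02. The 10 mitotic genes that did not pass ranged from 0.05 for Bub3 to 0.29 for Cenpa, the centromeric histone, and Cdc20.

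Of the 16 S-phase genes at day 5 in males, 0 passed in limma and 2 had an unadjusted p under 0.05. Their median was 0.06, and they ranged from −0.23 for Cdk2 to 0.28 for Mcm7. Mcm2 stood at 0.20 and 0.04, Pcna at 0.04 and 0.04, and E2f1 at 0.00 and −0.06. Without array 1 the only member called was Kif23, and without array 2, 4 were (Kif23, Bub1, Cenpe and Mki67). The ratios of the scanner software gave 4 called members, and normexp at offset 0 gave 8.

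In males at day 3 both waves were higher with Adeno-Cux2. Of 16 S-phase genes 12 rose (median 0.55) and of 26 mitotic genes 20 rose (median 0.43), with none lower. Of all genes 23.7% rose at this time, 20.3% fell and 44.0% were called in either direction, the largest background of the 4 comparisons. Rrm2, the small subunit of ribonucleotide reductase that supplies DNA precursors, rose most among S-phase genes (1.07 and 1.22; 1.15 ± 0.10, 2.21-fold, adjusted p = 0.000169). The helicase subunits Mcm4 (0.98 and 0.81; 0.90 ± 0.12) and Mcm2 (0.96 and 0.76; 0.86 ± 0.08) and the loader Cdc6 (1.09 and 0.69; 0.89 ± 0.08) followed. All 4 were well above 0 on both arrays.

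Mcm3 rose by 0.75 ± 0.16 (0.81 and 0.68) and Mcm7 by 0.63 ± 0.09 (0.79 and 0.46), so that 5 of 6 helicase subunits passed and Mcm6 did not (0.31 and 0.25, adjusted p = 0.308). Pcna rose by 0.62 ± 0.07 (0.64 and 0.59). The nucleotide enzymes Rrm1, the large reductase subunit, and Tyms, thymidylate synthase, and the licensing genes Cdt1 and its inhibitor Gmnn, geminin, also rose. The dimmest Tyms probe gave −0.12. E2f1 (0.06 and −0.14), Tk1 (−0.22 and −0.12) and Cdk2 (0.15 and 0.33) did not pass.

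Kif23 rose most of all 42 members at day 3 (1.71 and 1.51; 1.61 ± 0.07, 3.05-fold, adjusted p = 2.22e-05), and Bub1 was next among mitotic genes (0.84 and 1.16; 1.00 ± 0.07, 2.00-fold, adjusted p = 6.86e-05). Nusap1 rose by 0.76 ± 0.10 (0.60 and 0.92), Cenpe by 0.73 ± 0.08 (0.59 and 0.87), Mki67 by 0.73 ± 0.07 (0.51 and 0.95) and Ube2c by 0.73 ± 0.06 (0.61 and 0.84). Top2a (0.67 ± 0.09), Ccnb1 (0.32 ± 0.08) and Cdk1 (0.26 ± 0.06) were called too, although the dimmer Cdk1 probe gave −0.18. The 6 mitotic genes not called were Foxm1, the factor that switches on mitotic genes, the passenger subunit Cdca8, the checkpoint proteins Bub1b and Bub3, Cdc20 (0.14 and 0.12) and Cenpa. With either array left out fewer members were called. Without array 1 the S-phase median was 0.44 and the mitotic median 0.37, and without array 2 they were 0.63 and 0.44.

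In females at day 5 mitotic genes were higher in the pools labelled Adeno-Cux2, and few S-phase genes passed the test. Of 26 mitotic genes 21 rose (median 0.40), against 12.8% of all genes higher and 19.1% called in either direction. Bub1 rose by 0.84 ± 0.07 (0.66 and 1.01, 1.79-fold, adjusted p = 0.000605) and Kif23 by 0.74 ± 0.07 (0.72 and 0.75, 1.67-fold, adjusted p = 0.000926). Kif20a (0.38 and 0.79; 0.58 ± 0.08), Cenpe (0.36 and 0.78; 0.57 ± 0.08), Nusap1 (0.26 and 0.79; 0.52 ± 0.10) and Birc5 (0.23 and 0.80; 0.51 ± 0.09) followed. These last 4 genes were higher on array 2 than on array 1.

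All 5 genes of the cyclin, Cdk1 and Foxm1 group passed in females, among them Ccnb1 (0.16 and 0.62; 0.39 ± 0.08), Foxm1 (0.33 ± 0.08) and Cdk1 (0.25 and 0.24; 0.25 ± 0.06), whose dimmer probe gave −0.06. Mki67 (0.21 and 0.70; 0.46 ± 0.07) and Top2a (0.24 and 0.53; 0.39 ± 0.09) passed. Cdca8, Bub3, Mad2l1, a further checkpoint protein, Cenpa and Prc1 did not.

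Among S-phase genes in females 1 rose and 2 fell, with a median of −0.17 and 12 of 16 below 0 on both arrays. Pcna fell by 0.53 ± 0.07 on the log2 scale (−0.49 and −0.56, 1.44-fold, adjusted p = 0.00339) and Cdk2 fell by 0.49 ± 0.08 (−0.40 and −0.58, 1.40-fold, adjusted p = 0.00781), where 6.31% of all genes were lower. Rrm2 rose by 0.44 ± 0.10 (0.47 and 0.40, adjusted p = 0.0232). The other 13 ranged from −0.45 for Mcm6 to 0.10 for Tk1, with Mcm2 at −0.07 and −0.26 and E2f1 at −0.21 and −0.12. Without array 2 only Bub1 and Kif23 of the 42 members were called, and without array 1, 12 were, and 15 without either male day 5 array. With the software's log ratios 7 members were called, with offset 0, 12, with median centring 14 and with the 2 arrays alone 10.

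**Figure D2:**
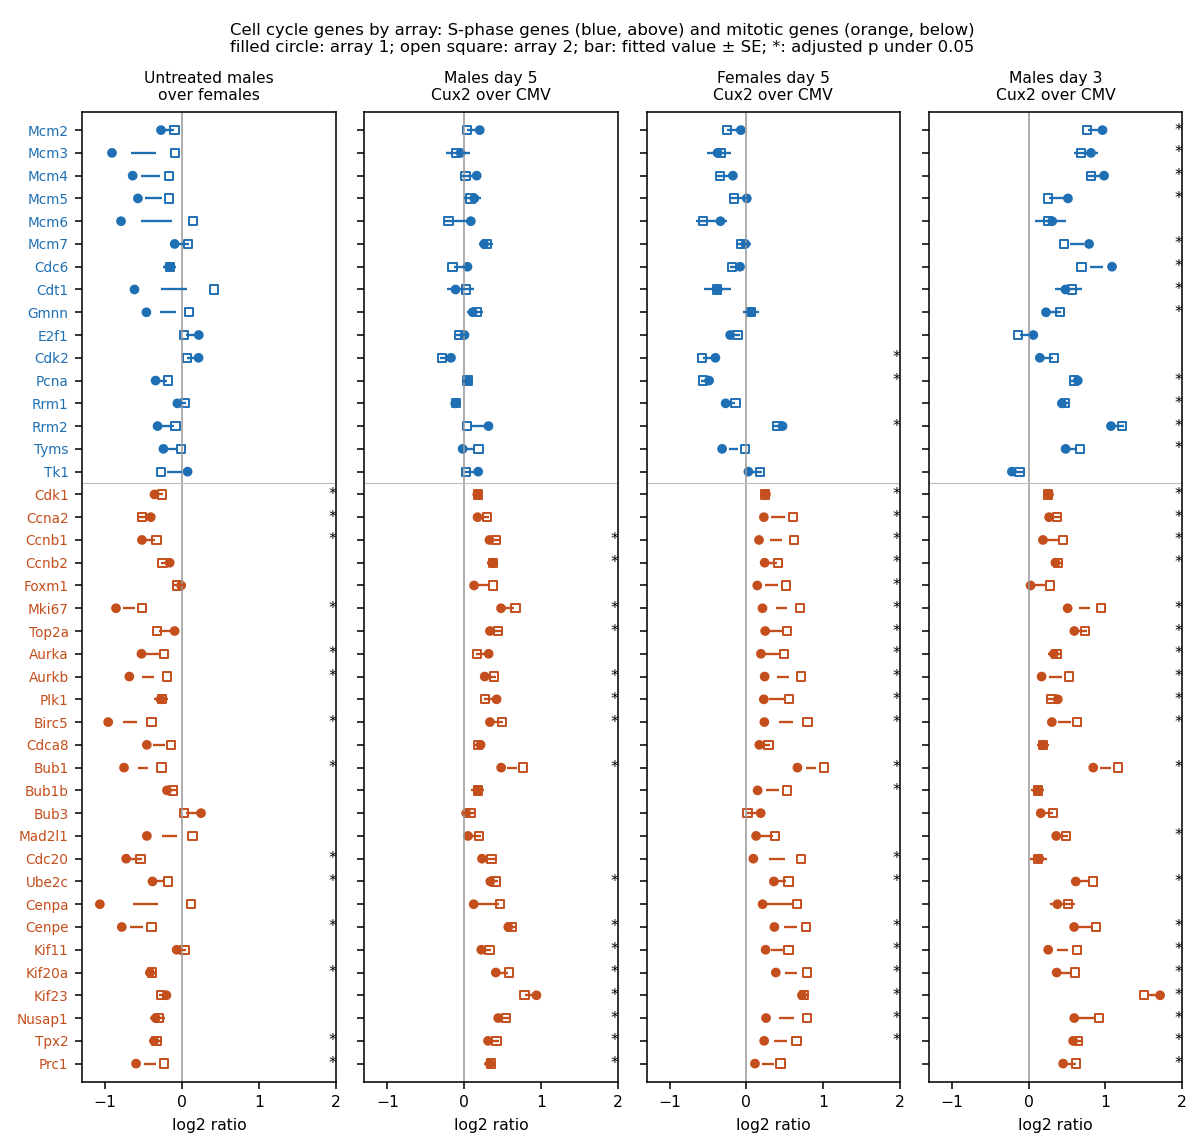
Log2 ratios (horizontal axis) of the 42 members on array 1 (filled circles) and array 2 (open squares) in the 4 comparisons, with the fitted value ± SE as a bar and a star where the adjusted p was under 0.05. S-phase genes (blue) have 12 stars on day 3, 3 in females and none elsewhere, and mitotic genes (orange) have 14, 16, 21 and 20 from left to right.

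Across the 3 virus comparisons, which used separate pools and arrays, 15 of 26 mitotic genes rose in each with the female direction as labelled, against 8.54% of all genes: Aurkb, Birc5, Bub1, Ccnb1, Ccnb2, Cenpe, Kif11, Kif20a, Kif23, Mki67, Nusap1, Plk1, Top2a, Tpx2 and Ube2c. Among them are both mitotic kinases of the passenger and polo families, the mitotic cyclins, and 6 of the 8 spindle and centromere genes, Kif11 being the motor that pushes spindle poles apart. With the female sign turned the count is 0 of 26, against 0.0180% of all genes. In both male comparisons, which do not need that direction, 16 of 26 rose, against 11.4% of all genes. None of the 16 S-phase genes rose in all 3 or in both male comparisons. Bub3, Cdca8 and Cenpa passed in no virus comparison. All 14 mitotic genes that were lower in untreated males rose in at least 1 virus comparison (13 with the female sign turned). Of the 1366 genes lower in untreated males among all genes, 60.9% did so (70.6% turned), and of all genes tested 27.7%.

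Most of the members whose response differed between the days were S-phase genes. Tested as a contrast in the same limma model, the Adeno-Cux2 ratio in males was smaller at day 5 than at day 3 for 8 of 16 S-phase genes and 3 of 26 mitotic genes, against 4.82% of all genes smaller, 8.10% larger and 12.9% in either direction. The S-phase genes were Rrm2 (difference −0.97 ± 0.14), Cdc6 (−0.94 ± 0.12), Mcm4 (−0.81 ± 0.17), Mcm2 (−0.74 ± 0.12), Pcna (−0.57 ± 0.10), Rrm1 (−0.57 ± 0.09), Tyms (−0.49 ± 0.09) and Cdk2 (−0.47 ± 0.11). The mitotic genes were Kif23 (−0.75 ± 0.10), Bub1 (−0.38 ± 0.09) and Ube2c (−0.36 ± 0.09). For 14 of 16 S-phase genes both day 3 arrays lay above both day 5 arrays, and for 11 of 26 mitotic genes.

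The median difference between the days was −0.53 for S-phase genes and −0.12 for mitotic genes. Mki67 (−0.16 ± 0.10, adjusted p = 0.4), Top2a (−0.28 ± 0.13, adjusted p = 0.226) and Ccnb1 (0.05 ± 0.11, adjusted p = 0.815) did not pass. The arrays of the 2 days lay on different slides, so slide and day cannot be told apart. No member was called without either male day 5 array or with the ratios of the scanner software, and 5 instead of 11 with offset 0. There were 4 without day 3 array 1 and 2 without day 3 array 2.

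**Figure D3:**
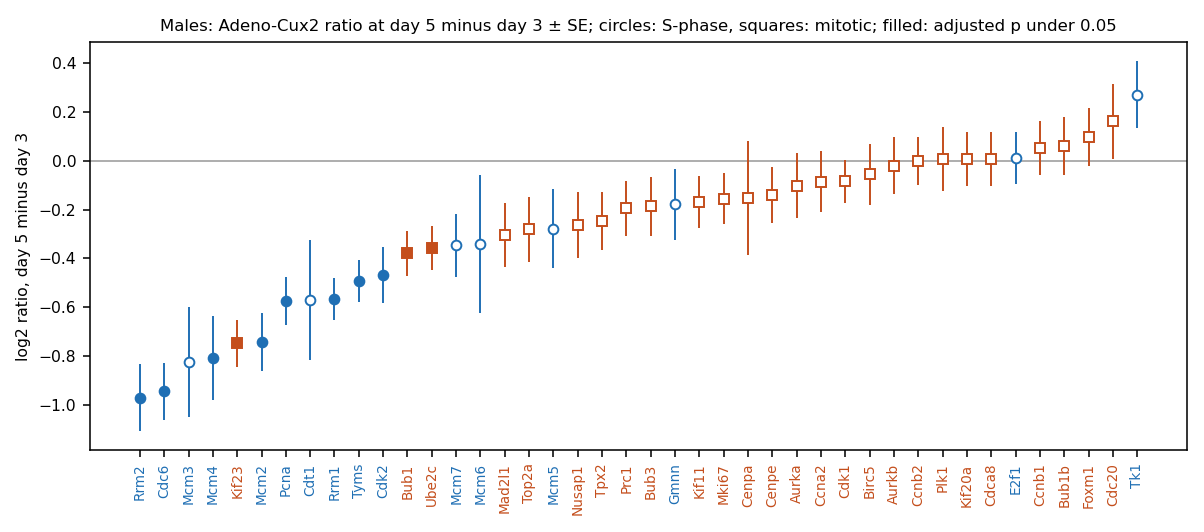
Difference of the log2 ratio between day 5 and day 3 in males (vertical axis) ± SE for each member, in rising order; circles are S-phase genes, squares mitotic genes, and filled symbols have an adjusted p under 0.05. The 11 filled symbols all lie below 0, from −0.97 for Rrm2 to −0.36 for Ube2c.

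Between the sexes at day 5, with the female direction as labelled, 0 of 42 members differed in limma, against 0.207% of all genes (0.0360% higher and 0.171% lower in females), and 3 S-phase and 0 mitotic genes had an unadjusted p under 0.05. The largest difference, female minus male, was that of Pcna at −0.57 ± 0.10 (adjusted p = 0.0873). The median difference was −0.25 for S-phase and 0.08 for mitotic genes. With the female sign turned, 23 of 26 mitotic genes were lower in females (Kif23 −1.60 ± 0.10). Of 16 S-phase genes 3 were higher (Pcna 0.48 ± 0.10) and 1 lower. Of all 22220 genes 4250 were then lower and 2278 higher, so the contrast rests on the direction that Cux2 goes against. Sex and slide cannot be told apart in it.

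Set against each other within a comparison, the S-phase median lay below the mitotic median by 0.28 in males at day 5 (0.26 and 0.35 on the 2 arrays) and by 0.56 in females at day 5 (0.42 and 0.76). It lay 0.11 above it in males at day 3 (0.14 and 0.00) and 0.16 above it in untreated mice (0.12 and 0.21; 0.018 without background subtraction). The members of each set are not replicates, so these values carry no test.

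**Figure D4:**
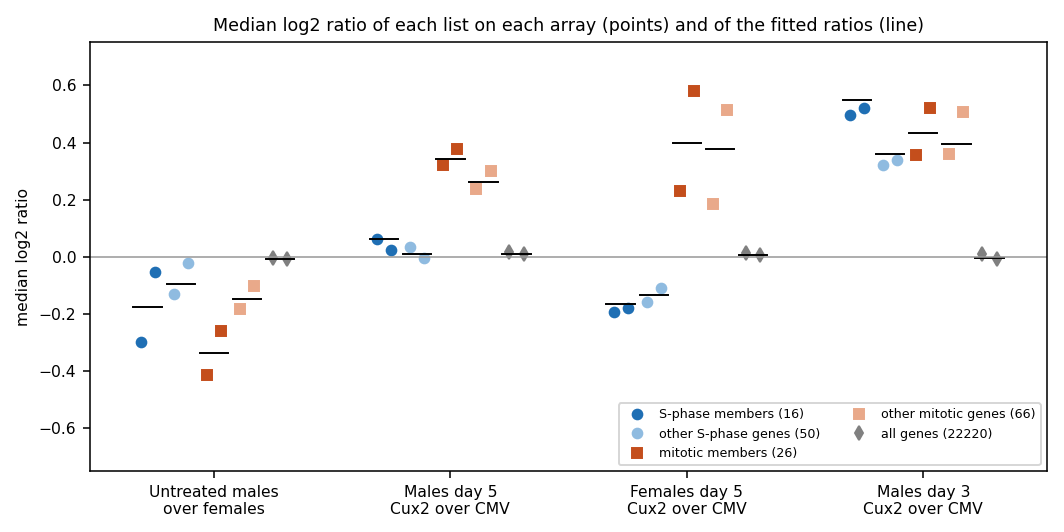
Median log2 ratio (vertical axis) of the member lists, of the other S-phase and mitotic genes and of all genes in the 4 comparisons; points are the 2 arrays and black lines the fitted ratios. In both day 5 comparisons the mitotic lists lie above 0 and apart from the S-phase lists, and at day 3 all 4 lists lie above 0.

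Further genes of the same steps were counted in the same way. Of all genes 13.9% rose and 4.95% fell in males at day 5, and 12.8% and 6.31% in the female comparison. In males at day 3 the shares were 23.7% and 20.3%, and in untreated mice 4.94% were higher and 6.15% lower in males. Of 66 other mitotic genes 28 rose and none fell in males at day 5 (median 0.26), 38 rose and 1 fell in females at day 5 (0.38), and 48 rose and 1 fell in males at day 3 (0.39). Cit, citron kinase of cytokinesis, rose most of them in each, by 1.19 ± 0.07, 1.33 ± 0.07 and 1.36 ± 0.07. Of 50 other S-phase genes 4 rose and 2 fell in males at day 5 (median 0.01), 1 rose and 11 fell in females at day 5 (−0.13), and 32 rose and 3 fell in males at day 3 (0.36). Among those that fell in females were Chaf1b, a histone chaperone at the replication fork (−0.58 ± 0.07), Slbp, which binds histone mRNA (−0.56 ± 0.07), and Ung, uracil-DNA glycosylase (−0.49 ± 0.08). Mcm10, a replication initiation factor, fell in males at day 3 (−1.53 ± 0.12) and at day 5 (−0.65 ± 0.12). In untreated mice 9 of the other mitotic genes were lower in males and 1 higher, and 5 and 1 of the other S-phase genes.

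Of 18 regulators, 17 of the E2F, Rb and MuvB families and Myc, 1 rose (Myc) and 1 fell in day 5 males, against 13.9% and 4.95% of all genes. In day 5 females 2 rose and 2 fell, against 12.8% and 6.31%, and in day 3 males 6 rose and 2 fell, against 23.7% and 20.3%. E2f8, a repressing E2F, fell in males at day 5 (−0.83 ± 0.15) and day 3 (−2.19 ± 0.15), and stood at −1.09 ± 0.15 in females as labelled. Mybl2, the activating partner of MuvB, rose by 1.37 ± 0.08 at day 3 in males and by 0.36 ± 0.08 in females. Rbl2, the p130 protein of the DREAM complex, fell by 1.15 ± 0.07 on the log2 scale at day 3, and Myc, a growth factor-responsive factor, rose by 1.32 ± 0.13 in males at day 5. In untreated mice 2 regulators were higher and 2 lower in males, against 4.94% and 6.15% of all genes.

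Of 7 D and E cyclins and their kinases 1 rose and 2 fell in day 5 males, against 13.9% and 4.95% of all genes. The 1 that rose is close to the share of all genes. In the female comparison 2 rose and 2 fell, against 12.8% and 6.31%. In males at day 3, where all 7 were above 0, 6 rose and none fell, against 23.7% and 20.3%. Ccnd1, cyclin D1 that takes cells out of rest, rose in males by 2.76 ± 0.10 at day 5 and by 2.95 ± 0.10 at day 3, and stood at 2.59 ± 0.10 in females as labelled. Ccne2, a cyclin E partner of Cdk2, fell at day 5 in males (−0.43 ± 0.07) and females (−0.84 ± 0.07) and rose at day 3 (0.63 ± 0.07). Ccne1 fell at day 5 in males (−0.30 ± 0.07) and females (−0.65 ± 0.07) and rose at day 3 (0.53 ± 0.07). Of 6 CDK inhibitors tested 3 rose and none fell in each virus comparison, beside the same shares of all genes. They were led by Cdkn2b (p15) at 1.48 ± 0.22, 1.24 ± 0.22 and 2.29 ± 0.22. Cdkn1a (p21) rose by 0.45 ± 0.08, 0.35 ± 0.08 and 1.30 ± 0.08.

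Markers of some other cells in the liver rose with the mitotic genes in the virus comparisons, and those of others did not. The part of these markers in the results was not tested. Their counts stand beside all genes, of which 13.9% rose and 4.95% fell in day 5 males, 12.8% and 6.31% in the female comparison, and 23.7% and 20.3% in day 3 males. Neutrophil markers rose for 12 of 13 in each virus comparison, and their summed signal went from 10304 to 13211 with Adeno-CMV to 73957 to 79831 with Adeno-Cux2 in males at day 5. In the female pools the sums were 42795 to 46158 and 114374 to 133081, and in males at day 3 they were 15033 to 16387 and 57036 to 66694. Macrophage markers rose for 15 of 17 in males at day 5, for 11 in females, and rose for 6 and fell for 6 in males at day 3, when the S-phase genes rose. Their sums in males at day 5 were 58202 to 70819 with Adeno-CMV and 175167 to 207873 with Adeno-Cux2. In females at day 5 they were 107601 to 107620 and 245302 to 249474, and in males at day 3 they were 61316 to 73318 and 140761 to 143109. Such sums follow the brightest probes. The median log2 ratio of the macrophage markers at day 3 was 0.10 (0.23 and −0.06 on the 2 arrays). In untreated males 5 of 13 neutrophil and 7 of 17 macrophage markers were lower, against 6.15% of all genes lower and 4.94% higher. Of the neutrophil markers, Mmp8 was not well above background in either untreated male pool, and Ly6g was not tested.

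Markers of resident liver cells and lymphocytes were counted too. The shares of all genes are again 13.9% higher and 4.95% lower in day 5 males, and 12.8% and 6.31% in the female comparison. In day 3 males they are 23.7% and 20.3%. Stellate cell markers rose for 10 of 14 in males and females at day 5 and for 7 in males at day 3, when 1 fell. In untreated males 5 of 14 were lower, against 6.15% of all genes. Their sums with Adeno-CMV and Adeno-Cux2 were 65341 to 75646 and 121702 to 128372 in males at day 5. In the female pools they were 91199 to 102110 and 144762 to 197006, and in males at day 3 they were 85226 to 87787 and 130793 to 138484. Bile duct markers rose for 5, 7 and 5 of 10, with 1 lower at day 3, and T and natural killer cell markers for 10, 7 and 11 of 17, with 1 lower at day 3. Endothelial markers rose for 5, 7 and 3 of 13, with 2 lower at day 3, where 3 of 13 is close to the share of all genes that rose. Of 7 B cell and plasma cell markers 1 rose in males at day 5, 1 fell in females and 2 fell in males at day 3. Both male counts are close to the shares of all genes. Red cell markers rose for 6 and fell for 2 of 13 in males at day 5, rose for 6 in females, and rose for 1 and fell for 8 in males at day 3. Hepatocyte markers rose for 2 and fell for 1 of 10 in males at day 5, rose for 3 and fell for 1 in females, and fell for 6 in males at day 3. The 2 of 10 that rose in day 5 males are close to the share of all genes. All 10 hepatocyte markers were well above background on every array.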

How the data were processed

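Liver RNA was extracted, amplified to aminoallyl RNA and coupled to Alexa dyes, per the labels. Agilent Feature Extraction read the scans, as version 9.5.3.1 (slide with untreated mice and males at day 5) or 10.7.1.1 (the other slide), per the file headers, with array annotation on mm8. The deposited intensity values are median pixel brightness of spot and local background in each channel, not normalized. The deposited log10 ratios of red over green were background-subtracted and dye-normalized by the software, per the file headers, and served as an alternative. The deposited spot flags are 0 or 1, for signals well above background, saturation and outliers.

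Signals were corrected by normexp (offset 50) and the ratios normalized by loess within each array in limma 3.58.1 (R 4.3.3, data.table version 1.17.8). The 43379 gene spots gave 41174 probes and 22220 genes, each read by its brightest probe, among probes whose red or green spot was well above background on each array of some comparison. The members had 70 probes, of which 66 passed the filter. Of 18 members with several, all probes had the same sign for 14 at day 3 in males and for 13 in each other comparison. One limma model on 8 arrays had a coefficient per comparison and a dye term, with 3 residual and 3.63 prior degrees of freedom. Tests were 2-sided, Benjamini-Hochberg adjusted over all genes, with 0.05 as the threshold. The ± values are standard errors, with a median of 0.0784, and p-values measure the spread between pools, not mice. The number of arrays limits the precision. Fits tested on simulated data recovered 82% of genes changed by a log2 of 0.5 and 98% by 1 in the male day 5 comparison, on 22206 genes. There were 16 false calls. Smaller changes were not simulated, although mitotic members were called from 0.28 upwards in that comparison.

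The members and lists were chosen with earlier results of these data known. Named in each comparison were up to 6 called S-phase and 6 called mitotic members by size in each direction, 7 members in every comparison (Mki67, Top2a, Cdk1, Ccnb1, Pcna, Mcm2 and E2f1), and up to 3 called genes of each other list. The levels of single pools came from loess and Aquantile normalization, and separate-channel fits from these. Alternatives were other background corrections, median centring, the software's ratios, other filters and probe rules, no dye term, each comparison's own arrays and leaving out each array. The series text gives 11 untreated females and the sample labels 10.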

Additional observations from a re-analysis of the deposited data

Results flagged for a closer look

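For 11 of 42 members the response to Adeno-Cux2 in males differed between day 5 and day 3 by the test of the difference itself. In each case the ratio was smaller at day 5. Of all genes 12.9% differed in either direction and 4.82% had the smaller ratio at day 5. The 2 days lay on different slides, so slide and day cannot be told apart, and 0 of the 11 calls held under all 17 alternatives. The differences, in log2, were −0.74 for Mcm2, −0.81 for Mcm4, −0.94 for Cdc6, −0.57 for Pcna, −0.57 for Rrm1, −0.97 for Rrm2, −0.49 for Tyms and −0.47 for Cdk2 among S-phase genes, and −0.38 for Bub1, −0.36 for Ube2c and −0.75 for Kif23 among mitotic genes. Kif23, Bub1 and Ube2c passed on both days. None of the 8 S-phase genes passed at day 5, and all but Cdk2 passed at day 3.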

How the results depend on the processing

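All called members kept their direction under all 19 alternatives (17 for the difference between days), but their calls did not. With dyes exchanged within each comparison, many of these alternatives could not change a fitted ratio, only its call. They were no dye term, a spread estimated by signal intensity, and the arrays of 1 slide or of the comparison alone. Leaving out an array of another comparison was a further one. In all of these the kept direction was fixed in advance. The other filters on dim spots left the S-phase and mitotic medians unchanged too. At day 3 17 of the 32 calls held under all 19, against 2 of 24 in females at day 5 (Bub1 and Kif23). In males at day 5 1 of 16 held (Kif23), and 0 of 14 in untreated mice. In untreated mice 14 members were called, and 2 without background subtraction, 6 with median centring and 0 with the 2 arrays alone. In males at day 5 the 16 calls became 8 with normexp at offset 0 and 4 with the software's log ratios. In females at day 5 the 24 became 12 with offset 0, 7 with the software's ratios, 14 with median centring and 10 with the 2 arrays alone. The 11 calls between days became 5 with offset 0 and 0 with the software's ratios. Over all genes the untreated calls became 1597 without background subtraction, 1493 with offset 0, 1117 with the software's ratios and 408 with the 2 arrays alone. They became 6325 with the 2 arrays alone in males at day 5, and 2598 with the software's ratios and 2703 with the 2 arrays alone in females. The S-phase minus mitotic median in untreated mice, 0.16, was 0.018 without background subtraction, 0.31 with offset 0 and 0.37 with the software's ratios. The cause of these shifts was not tested.

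With 1 array left out in turn, called members numbered 1 to 18 (untreated), 1 to 17 (males, day 5), 2 to 31 (females), 18 to 36 (males, day 3) and 0 to 13 between days. All genes called numbered 535 to 3972, 1045 to 5063, 1344 to 5212 and 5424 to 10891 in the same order. The S-phase minus mitotic median was also taken on the ratios of the array that remained, without the dye term of the fits. It ranged from 0.12 to 0.21 in untreated mice and −0.35 to −0.26 in day 5 males. In females it ranged from −0.76 to −0.42, and at day 3 in males from 0.00055 to 0.14. The fits with the dye term gave other medians. In untreated mice the S-phase and mitotic medians were −0.02 and −0.31 without array 1. Without array 2 they were −0.36 and −0.33, in the reverse order. Between sexes 0 members were called each time (27 with the female sign turned, added after seeing the data), and for Adeno-CMV over untreated males 14 to 15 S-phase and 25 mitotic members were. The replicate number marks the dye orientation, so the model holds it as a block. Same-numbered arrays correlated in their deviations at −0.09 to 0.30. With no replicate block 6 members were called in untreated mice, 11 in day 5 males, 17 in females, 27 at day 3 and 8 between days.

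Signal over background limits Cdc6, the one member not well above it in every channel. Several mitotic members were also dim in untreated pools, such as Ccnb1 at log2 signals of 6.48 and 6.61 in untreated males. Over the alternatives the untreated ratio of Ccnb1 ran from −1.40 to −0.12 and that of Bub1 from −1.13 to −0.14. That of Birc5, at 8.77 and 9.21 in untreated males, ran from −0.79 to −0.44. The smallest fold called was 1.19.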

Other observations

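Pools of different arrays were also compared through their separate channels, a comparison chosen after the levels had been seen. Male pools given the control virus Adeno-CMV for 5 days were set against untreated male pools on the same slide, with 2 pools each. All 26 mitotic genes were higher with Adeno-CMV, with a median log2 difference of 3.94 (15.3-fold), and 15 of 16 S-phase genes, with a median of 1.97 (3.93-fold). Over all genes the median was −0.04, and 11.2% were higher, 17.1% lower and 28.2% called in either direction by limma at an adjusted p under 0.05. Cdc20 rose by 5.36 ± 0.13 (41.2-fold), Ccnb1 by 5.24 ± 0.10 (37.8-fold), Prc1, which bundles the central spindle, by 4.63 ± 0.10 (24.8-fold) and Mki67 by 4.15 ± 0.11 (17.7-fold). Among S-phase genes Mcm6 rose by 3.83 ± 0.22 (14.2-fold), Rrm2 by 3.03 ± 0.11 (8.17-fold) and Pcna by 1.74 ± 0.08 (3.34-fold). Tk1 did not pass (0.01 ± 0.12, adjusted p = 0.97), and Bub3 rose least of the mitotic genes (0.44 ± 0.11).

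Of the other mitotic genes 63 of 66 were higher and none lower, and of the other S-phase genes 44 of 50 were higher and 1 lower. Neutrophil markers were higher for 8 of 13 and lower for none, macrophage markers higher for 3 and lower for 8 of 16, endothelial markers lower for 10 of 13, stellate cell markers lower for 5 of 14 and hepatocyte markers lower for 2 of 10, the last close to the share of all genes. The part of these cells in the result was not tested. The untreated and virus-treated pools differed in more than the virus, since no vehicle-treated mice were analysed here. Without background subtraction the mitotic median was 2.67. The fit used an intraspot correlation of 0.402. On simulated data for this comparison it recovered 90% of genes changed by a log2 of 1 and 98% by 2, on 22206 genes, with 11 false calls.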
